A study of Mus musculus with 20 samples.

Results

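The genes described here encode H/ACA small nucleolar RNAs, small Cajal body RNAs and the U3 small nucleolar RNA, measured in mouse liver. They were the rows of the deposited gene table named Snora, Scarna or Rnu3 that held at least 10 counts in at least 3 of 20 libraries. Of 55385 rows, 61 had such a name and 26 met the count rule: 18 H/ACA genes, 5 U3 genes and 3 small Cajal body RNA genes. These genes were chosen by their counts over all libraries, without regard to group, and each of them had a library at 10 counts or more in at least 3 of the 4 groups. By the count that the rule tests, the lowest of the top 3 libraries, the members nearest the rule were Scarna13 (14), Snora24 (17) and Snora43 (18), and the rows just outside it were Snora21 (9), Snora9 (8) and Snora62 (7).

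RNA labelled as liver had been taken at week 24 from 4 groups of 5 libraries each. The groups were mice labelled LXRα-/- on a high-fat diet (HFD), WT mice on HFD, mice labelled LXRα-/- on chow, and WT mice on chow. LXRα is a nuclear receptor for oxysterols, encoded by Nr1h3. The titles give the genotype as LXRα-/- and another label field gives it as a knockdown. No strain, sex, age, allele, animal or batch is given in the sources used here, and the spread behind the p-values is that between libraries, which may be technical. The protocol isolates poly(A) RNA on poly-T beads and then speaks of both poly(A)- and poly(A)+ fractions, without saying which was sequenced, and it names an adipose type where the tissue label says liver. The hepatocyte product Alb stood at 8195 to 31039 FPKM (fragment number corrected for gene length and for library size) in all 20 libraries, against at most 5.56 FPKM for Adipoq and at most 0.440 FPKM for Lep, both defining adipocytes. Of the other adipocyte markers, Cfd reached 310 FPKM, with means of 134 in labelled LXRα-/- HFD, 28.4 in WT HFD, 34.9 in labelled LXRα-/- chow libraries and 1.80 in WT chow, and Cidec reached 26.1 FPKM. The 6 adipocyte markers summed to 12.3 to 336 FPKM in labelled LXRα-/- HFD, 4.24 to 93.7 in WT HFD, 2.54 to 91.7 in labelled LXRα-/- chow libraries and 1.54 to 14.3 in WT chow.

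H/ACA RNAs guide the conversion of uridine to pseudouridine in ribosomal RNA, in a particle with the proteins dyskerin, Nhp2, Nop10 and Gar1. Small Cajal body RNAs guide modification of spliceosomal RNAs, and U3, a box C/D type RNA, takes part in the first cleavages that release the RNA of the small ribosomal subunit. In vertebrates most H/ACA RNAs are cut from introns of host genes, while U3 is transcribed from genes of its own. The mature RNAs carry no poly(A) tail, and poly(A) selection mostly leaves them behind. In bulk tissue a difference in their level cannot be split into cell numbers and RNA per cell.

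The U3 sequences are shown first because all 5 U3 genes passed the test in 3 of the comparisons below. Rnu3b1, Rnu3b2, Rnu3b3 and Rnu3b4 lie on the plus strand of chromosome 11 in GRCm38, at chr11:87443237-87443452, chr11:87471368-87471583, chr11:87448627-87448842 and chr11:87462286-87462501, all inside the span of Tex14, which encodes a protein of germ cell bridges. Their annotated transcripts were identical over 216 bases, so a single sequence stands for all 4. Rnu3a lies at chr10:40258467-40258680 on the plus strand, outside any annotated host, and its transcript was 85.2% identical to Rnu3b over 216 aligned columns. Capitals mark TGATGA and the last CTGA, which correspond to the conserved box C and box D letters of this RNA class. Sequences are those of GENCODE M21 transcripts on GRCm38, read 5′ to 3′.
Rnu3b1 to Rnu3b4: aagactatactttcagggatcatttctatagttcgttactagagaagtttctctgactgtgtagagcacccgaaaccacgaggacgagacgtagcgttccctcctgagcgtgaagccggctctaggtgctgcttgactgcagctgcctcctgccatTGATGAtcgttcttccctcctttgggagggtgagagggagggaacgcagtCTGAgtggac
Rnu3a: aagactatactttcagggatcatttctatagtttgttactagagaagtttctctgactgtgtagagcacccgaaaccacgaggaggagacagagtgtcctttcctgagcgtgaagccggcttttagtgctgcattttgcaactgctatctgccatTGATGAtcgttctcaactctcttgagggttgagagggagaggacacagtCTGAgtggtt

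The H/ACA sequences chosen next are those of 3 members described with their counts below, of a member that moved against its host, and of a member that split the libraries within a group. Snora81 lies at chr16:23110756-23110933 on the plus strand in Eif4a2, Snora30 at chr7:127527874-127528003 on the plus strand in Srcap, and Snora31 at chr14:75847905-75848034 on the plus strand in Tpt1. Snora41 lies at chr1:63179004-63179135 on the plus strand in Eef1b2, and Snora70 at chrX:74272484-74272620 on the plus strand in Rpl10. Capitals mark ACA where it stands 3 bases before the 3′ end, the place that gives the class its name.
Snora81: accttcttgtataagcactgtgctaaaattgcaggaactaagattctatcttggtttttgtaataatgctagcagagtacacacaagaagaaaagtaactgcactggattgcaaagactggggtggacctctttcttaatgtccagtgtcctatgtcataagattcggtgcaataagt
Snora30: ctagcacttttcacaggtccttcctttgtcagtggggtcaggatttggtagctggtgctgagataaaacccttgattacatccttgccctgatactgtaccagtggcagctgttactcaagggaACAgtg
Snora31: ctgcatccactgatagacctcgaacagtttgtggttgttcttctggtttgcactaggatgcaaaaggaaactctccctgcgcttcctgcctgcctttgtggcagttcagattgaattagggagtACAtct
Snora41: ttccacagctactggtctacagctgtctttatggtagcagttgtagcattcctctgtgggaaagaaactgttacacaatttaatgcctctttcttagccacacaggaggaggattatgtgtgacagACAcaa
Snora70: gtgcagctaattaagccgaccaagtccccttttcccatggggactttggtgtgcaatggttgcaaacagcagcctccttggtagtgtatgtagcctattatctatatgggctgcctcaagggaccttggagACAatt

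ACA was searched at that single place on the RNA strand, and it was present in 15 of the 18 H/ACA members and in 35 of 41 H/ACA transcripts by name (85.4%). Snora81, Snora44 and Snora43 had other letters there. TGATGA was searched anywhere on the RNA strand and CTGA within the last 20 bases. Both were present in all 5 U3 members, in 73 of 99 box C/D transcripts by name and in no H/ACA member. The members were 79 to 414 bases long, with a median of 137, and 25 of the 26 were shorter than the 300 base pairs that the protocol gives as the mean insert.

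These RNAs were a very small part of each library. Libraries held 75549139 to 108889938 counts. The 26 genes together took 28.6 ± 17.9 CPM (counts scaled to a library of 1000000) in labelled LXRα-/- HFD, 12.9 ± 2.46 CPM in WT HFD, 40.0 ± 15.0 CPM in labelled LXRα-/- chow libraries and 3.52 ± 0.868 CPM in WT chow (SD, n = 5 each). The other 15 libraries held 9.25 CPM or more, and the WT chow libraries lay below all of them, between 2.29 and 4.30 CPM. Of the 26 genes, 18 to 25 had 10 counts or more in a labelled LXRα-/- HFD library, 18 to 22 in a WT HFD library, 18 to 22 in a labelled LXRα-/- chow library and 10 to 15 in a WT chow library.

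**Figure D1:**
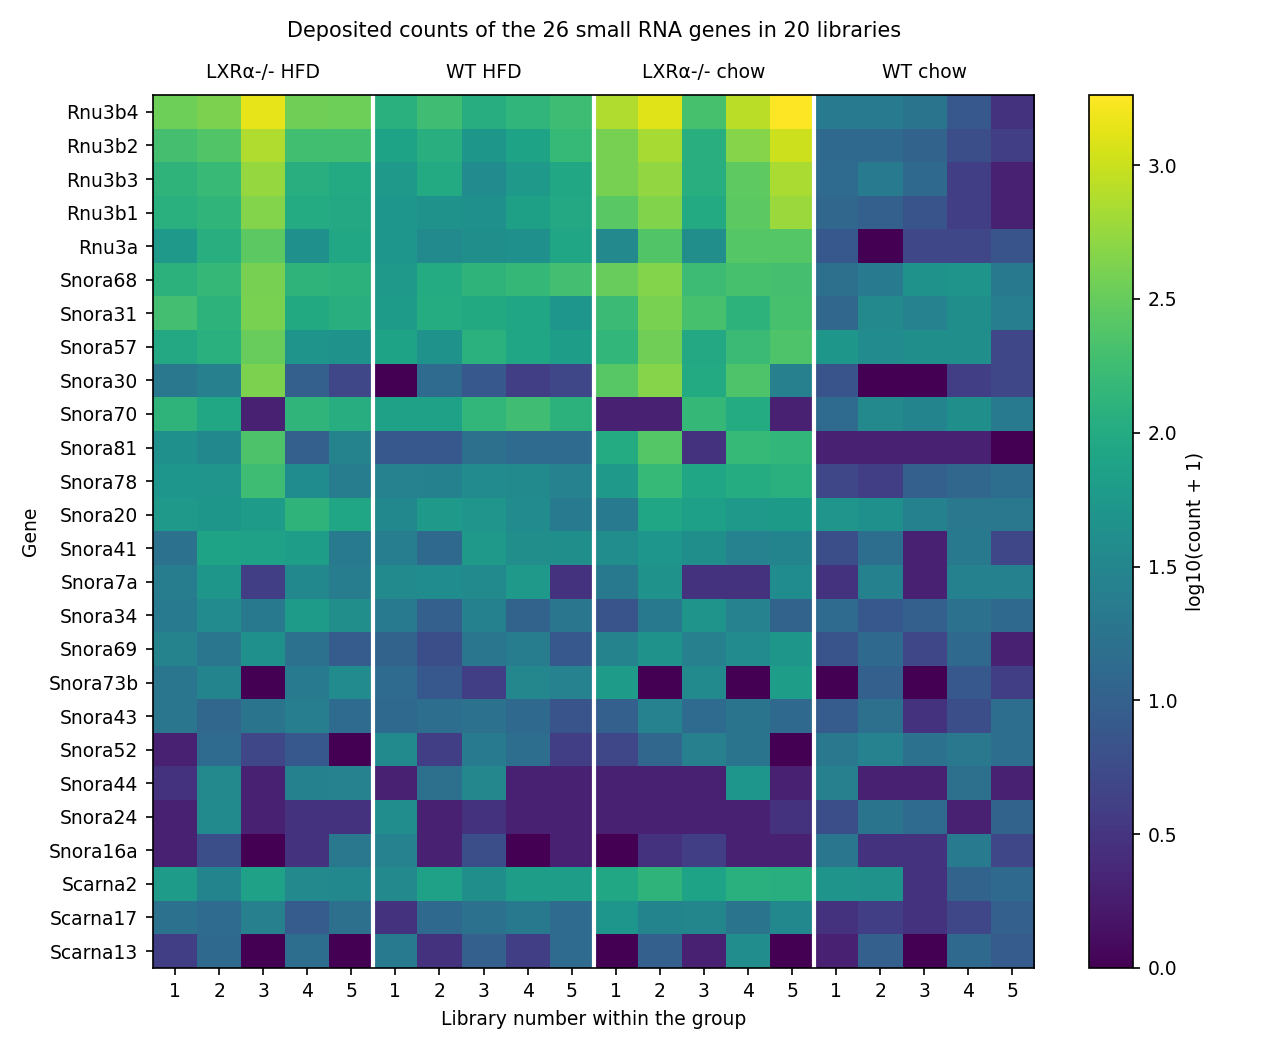
Deposited counts of the 26 genes (rows, by class) in the 20 libraries (columns, by group and library number), coloured by log10(count + 1). The U3 rows are darker in WT chow than in the other groups, and library 3 of labelled LXRα-/- HFD is brighter than the rest of its group in the U3 rows and dark for Snora70.

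The check of the targeted gene and 2 libraries that stood apart bear on the comparisons below. Nr1h3 had 77.2, 10.3, 67.1, 73.9 and 70.9 FPKM in labelled LXRα-/- HFD against 14.3 to 24.5 FPKM in WT HFD, and 46.6, 66.1, 58.9, 7.89 and 59.8 FPKM in labelled LXRα-/- chow against 32.8 to 45.3 FPKM in WT chow. The gene named by the label was thus below its WT range in 1 library of each labelled group and above it in the other 4 of each, so every direction of genotype given here rests on the labels. In deviations of 12530 genes from their means, library 3 of labelled LXRα-/- HFD had a mean correlation of 0.371 with the labelled LXRα-/- chow libraries and 0.142 with the other libraries of its own group. Library 3 of labelled LXRα-/- chow had 0.231 with labelled LXRα-/- HFD and 0.210 with its own group. In the same libraries the members summed to 60.3 CPM, the highest of 20, and to 17.9 CPM, the lowest of labelled LXRα-/- chow.

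The share of counts in mitochondrially encoded genes had the same order of group means as the member sums. It was 16.9% ± 3.05 in labelled LXRα-/- HFD, 15.1% ± 4.08 in WT HFD, 22.0% ± 4.77 in labelled LXRα-/- chow libraries and 4.71% ± 0.743 in WT chow (SD, n = 5 each). Single libraries did not always follow. Libraries 3 and 5 of labelled LXRα-/- HFD had shares of 19.9% and 20.4% but member sums of 60.3 and 19.6 CPM. Markers of Kupffer cells, the resident macrophages of liver, also moved with the groups: all 5 (Clec4f, Vsig4, Marco, Cd5l and Timd4) had a lower mean FPKM in labelled LXRα-/- livers than in WT livers on both diets. Their summed level was 4.61 to 11.2 FPKM in labelled LXRα-/- HFD, 25.6 to 37.2 in WT HFD, 6.47 to 29.5 in labelled LXRα-/- chow libraries and 49.0 to 95.3 in WT chow. The 5 T cell markers summed to 3.53 to 7.53 FPKM in labelled LXRα-/- HFD, 3.06 to 13.6 in WT HFD, 3.13 to 12.2 in labelled LXRα-/- chow libraries and 0.853 to 3.01 in WT chow, so that WT chow was lowest without overlap. The 5 B and plasma cell markers summed to 16.1 to 21.5 FPKM in labelled LXRα-/- HFD, 12.9 to 133 in WT HFD, 12.2 to 54.0 in labelled LXRα-/- chow libraries and 2.82 to 19.2 in WT chow. Cps1, a urea cycle enzyme of hepatocytes, averaged 83.3 FPKM in labelled LXRα-/- HFD, 91.5 in WT HFD, 69.6 in labelled LXRα-/- chow libraries and 310 in WT chow. Serpina1a, Apoh and Tat likewise had their highest means, 3882, 935 and 440 FPKM, in WT chow. Their means for labelled LXRα-/- chow were 1633, 286 and 319 FPKM. Alb averaged 19331 FPKM in WT chow against 18694 in labelled LXRα-/- chow. The remaining hepatocyte markers went the other way. Apoa1 and Ttr averaged 10336 and 6095 FPKM in WT chow, their lowest group, against 14730 and 7248 in labelled LXRα-/- chow. The 7 hepatocyte markers summed to 25242 to 58834 FPKM in labelled LXRα-/- chow and 20344 to 49356 in WT chow, which overlap. The part of these cell type markers in the results was not tested, and the mitochondrial share was used as a covariate in the fits given with the comparisons.

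**Figure D2:**
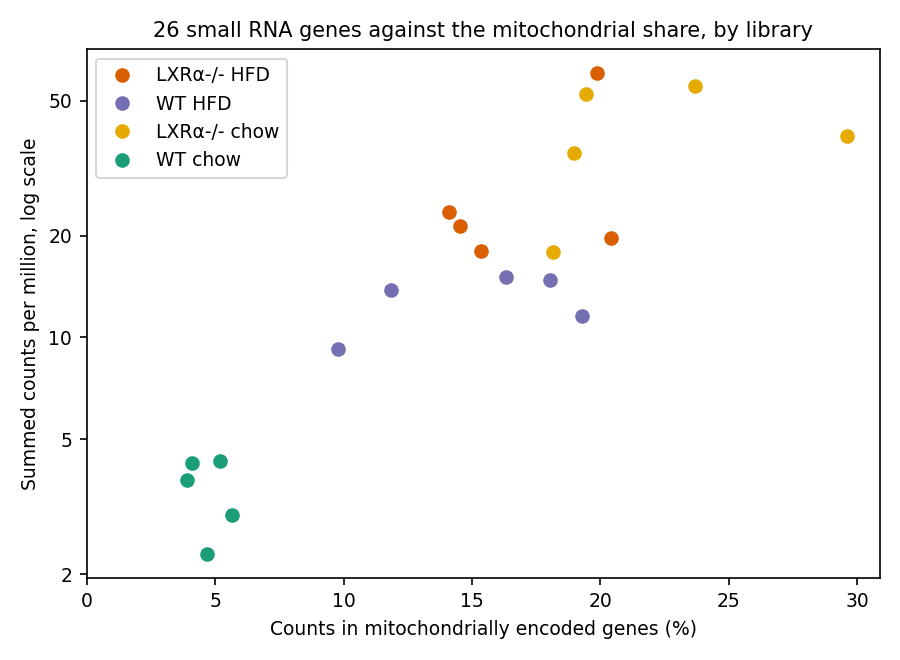
Summed CPM of the 26 genes (vertical, log scale) against the percentage of counts in mitochondrially encoded genes (horizontal), 1 point for each library. The 15 libraries of the other groups spread from 9.25 to 60.3 CPM between 9.77% and 29.6%, and the 5 WT chow libraries sit under 5 CPM at 3.89% to 5.67%.

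Per kilobase, Rnu3b4 ranked first of the 26 members in labelled LXRα-/- HFD (mean 26.2 FPKM), behind Snora68 and Snora70 in WT HFD (6.65 FPKM), first in labelled LXRα-/- chow (40.6 FPKM) and at place 13 in WT chow (0.598 FPKM). Rnu3b4 had 737, 1284, 205, 848 and 1827 counts in labelled LXRα-/- chow libraries 1 to 5, against 21, 22, 17, 7 and 2 in WT chow. On HFD it had 351, 418, 1379, 362 and 344 counts in labelled LXRα-/- libraries, against 116, 184, 108, 141 and 175 in WT libraries. The groups did not overlap on either diet, and WT HFD lay above WT chow in every library. Its mean was 6.35 ± 4.68 CPM in labelled LXRα-/- HFD, 1.61 ± 0.405 in WT HFD, 9.76 ± 5.63 in labelled LXRα-/- chow libraries and 0.147 ± 0.0991 in WT chow (SD, n = 5 each).

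The other 3 Rnu3b copies followed the same order of groups. Rnu3b2 had 109 to 1035 counts in labelled LXRα-/- chow against 3 to 12 in WT chow, and 185 to 747 in labelled LXRα-/- HFD against 53 to 154 in WT HFD. Rnu3b3 had 111 to 710 counts in labelled LXRα-/- chow against 1 to 21 in WT chow, and 97 to 558 in labelled LXRα-/- HFD against 37 to 99 in WT HFD. Rnu3b1 had 98 to 583 counts in labelled LXRα-/- chow against 1 to 11 in WT chow, and 92 to 447 in labelled LXRα-/- HFD against 42 to 91 in WT HFD. Because the transcripts are identical, reads can be divided among the copies only by a counting rule, which is not given in the sources used here, so the 4 are not separate measurements. In the 15 libraries with at least 100 Rnu3b counts, Rnu3b4 held a median of 43.8% of them (34.4% to 47.9%), Rnu3b2 24.9%, Rnu3b3 17.1% and Rnu3b1 14.7%. A second overlapping row is also listed for each copy, and these were at 0 in most libraries. The highest were 125 counts for Rnu3b4 in WT HFD library 5 and 35 for Rnu3b1 in WT HFD library 2. The values given here for the copies and their sum leave these second rows out, so they do not hold all Rnu3b counts of those libraries.

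Rnu3a, the separate gene on chromosome 10, had 33, 239, 40, 250 and 253 counts in labelled LXRα-/- chow against 7, 0, 4, 4 and 6 in WT chow. On HFD it had 57, 114, 271, 43 and 90 counts in labelled LXRα-/- libraries against 50, 35, 41, 43 and 85 in WT libraries. The chow groups were apart, the HFD groups overlapped, and each WT HFD library exceeded each WT chow library. Tex14, whose span holds the Rnu3b copies, had at most 42 counts in any library.

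**Figure D3:**
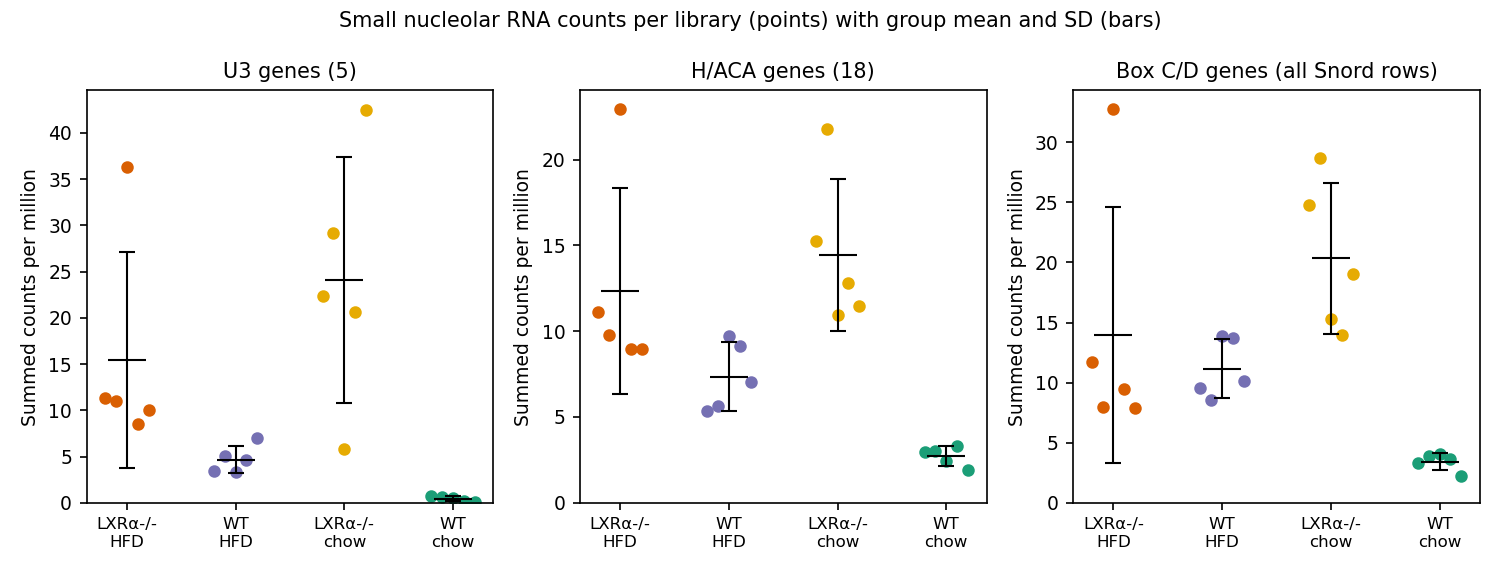
Summed CPM in each library (points) with the group mean and SD (bars) for the 5 U3 genes, the 18 H/ACA genes and all box C/D (Snord) rows. In each panel the 5 WT chow libraries are the lowest, and library 3 of labelled LXRα-/- HFD is far above the other 4 of its group.

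Genotype on chow was the comparison with the most calls. In a fit of edgeR's quasi-likelihood test over all 20 libraries, 15 of the 24 members that passed its filter were higher in labelled LXRα-/- chow than in WT chow and none was lower, at a Benjamini-Hochberg adjusted p under 0.05 over 18905 genes. Over all genes 43.4% were called and 22.3% were called higher. The median log2 fold change was 2.64 for the members and 0.08 for all genes. Snora16a and Snora24 did not pass the filter, and 5 members had no WT chow library at 10 counts, so a part of the members could hardly have shown a fall. The CPM of the groups did not overlap for the 15 called members, against 13.9% of all genes that lay higher without overlap.

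All 5 U3 members rose on chow. The log2 fold changes were 6.08 for Rnu3b4 (SE 0.65, adjusted p 8.35e-07, edgeR), 5.93 for Rnu3b2 (SE 0.63), 5.70 for Rnu3b1 (SE 0.63), 5.29 for Rnu3b3 (SE 0.70) and 5.12 for Rnu3a (SE 0.75). With the 4 identical copies summed to a single gene, without their second overlapping rows, the value was 5.83 (SE 0.65). Counted once, the Rnu3b copies leave 12 of 21 members called higher.

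Of the 16 H/ACA members tested, 8 rose on chow, with a median log2 fold change of 2.15. Snora81 had 102, 250, 2, 152 and 143 counts in labelled LXRα-/- chow against 1, 1, 1, 1 and 0 in WT chow. It had 42, 32, 225, 9 and 28 counts in labelled LXRα-/- HFD against 7, 7, 15, 13 and 13 in WT HFD. Library 3 was low in labelled LXRα-/- chow, at 2 counts, and high in labelled LXRα-/- HFD, and only the HFD groups overlapped. The fitted chow value was 7.02 on the log2 scale (SE 1.07, adjusted p 3.5e-05, edgeR). In WT chow the deposited FPKM of the 4 libraries listed at 1 count implied 0.00814 to 0.979 of a count each, 1.24 in sum, so these are estimates by the authors' counting. The size of the fitted value depends on them and on the prior count of the fit.

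Snora30 had 262, 464, 98, 230 and 25 counts in labelled LXRα-/- chow against 6, 0, 0, 3 and 4 in WT chow, and the groups were apart. On HFD it had 19, 25, 418, 9 and 4 counts in labelled LXRα-/- libraries against 0, 13, 7, 3 and 4 in WT libraries, so that library 3 alone held 88.0% of the labelled LXRα-/- HFD counts. The log2 fold change on chow was 6.17 (SE 1.31, adjusted p 0.000786, edgeR), over 13 counts in WT chow.

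The remaining H/ACA genes that rose on chow had fold changes closer to each other. Snora68 had 319, 457, 172, 202 and 199 counts in labelled LXRα-/- chow against 15, 21, 45, 48 and 20 in WT chow (log2 fold change 3.08, SE 0.45, adjusted p 1.94e-05, edgeR). On HFD it had 125, 146, 391, 130 and 122 counts in labelled LXRα-/- libraries against 57, 101, 132, 149 and 190 in WT libraries, and these overlapped. Snora31 had 164, 406, 206, 128 and 203 counts in labelled LXRα-/- chow against 11, 33, 27, 41 and 24 in WT chow (log2 fold change 2.90, SE 0.42, adjusted p 1.86e-05, edgeR). The groups were apart for both genes, and library 2 was the highest of labelled LXRα-/- chow for both.

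Snora78, which lies in Snhg9, had 55 to 151 counts in labelled LXRα-/- chow against 3 to 14 in WT chow and a log2 fold change of 3.50 (SE 0.52). Snora57 had 92 to 357 counts in labelled LXRα-/- chow against 4 to 52 in WT chow, with 2.39 (SE 0.55). Snora69 and Snora41 had 25 to 53 and 27 to 50 counts in labelled LXRα-/- chow against 1 to 12 and 1 to 20 in WT chow, with 2.32 (SE 0.65) and 1.98 (SE 0.63). The groups were apart in all 4 genes. Snora57 lies on the strand opposite to its only annotated host, Lbhd1, and the strand setting of the counting is not given in the sources used here.

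Of the 3 small Cajal body RNAs tested, 2 rose on chow. Scarna2, which guides changes in the U2 spliceosomal RNA, had 87, 130, 78, 117 and 114 counts in labelled LXRα-/- chow against 48, 46, 2, 10 and 12 in WT chow. Scarna17 had 50, 29, 30, 17 and 32 counts in labelled LXRα-/- chow against 2, 3, 2, 4 and 9 in WT chow. Both sets of groups were apart, with log2 fold changes of 2.08 (SE 0.57, adjusted p 0.00616, edgeR) and 2.95 (SE 0.68, adjusted p 0.00165, edgeR). Scarna13, which lies in Snhg10, had 0, 9, 1, 39 and 0 counts in labelled LXRα-/- chow against 1, 9, 0, 12 and 8 in WT chow and did not pass, with 0.56 (SE 1.37).

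The 9 tested members that did not pass on chow were Scarna13, Snora73b, Snora34, Snora70, Snora20, Snora43, Snora7a, Snora44 and Snora52, with log2 fold changes between -0.85 and 3.13. Snora73b, the U17 type RNA that acts in ribosomal RNA cleavage, had 62, 0, 34, 0 and 64 counts in labelled LXRα-/- chow against 0, 9, 0, 7 and 3 in WT chow, with an adjusted p of 0.076 (edgeR). Snora43 had 9 to 27 counts in labelled LXRα-/- chow against 2 to 15 in WT chow, and Snora52, the only tested member with a negative value, had 0 to 25 in labelled LXRα-/- chow against 14 to 27 in WT chow. Snora24, which was not tested, had 1 or 2 counts in all 5 labelled LXRα-/- chow libraries against 5, 17, 13, 1 and 10 in WT chow.

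Several members switched between about 1 count and far higher counts within a group. Snora70 had 1, 1, 149, 101 and 1 counts in labelled LXRα-/- chow and 130, 88, 1, 137 and 107 in labelled LXRα-/- HFD, against 13 to 41 in WT chow and 73 to 180 in WT HFD. The 4 libraries at 1 count had 737 Rnu3b4 counts or more, but so did labelled LXRα-/- chow library 4, with 101 Snora70 counts. This was seen in the values and was not tested. Snora44 had 51 counts in a single labelled LXRα-/- chow library and 1 in the other 4. A count of 1 was not always a read: of 520 member values 42 were exactly 1, and for 36 of these the deposited FPKM implied less than 0.9 of a count, with a median of 0.673 and a lowest of 0.00814. Such values below 0.9 were found in 9 libraries for Snora44, 9 for Snora24, 5 for Snora16a, 3 each for Snora70 and Snora81, 2 for Scarna13 and 1 each for Rnu3b1, Rnu3b3, Snora41, Snora52 and Snora69.

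With the mitochondrial share as a covariate, 0 of the 24 members were called on chow, and 182 of all genes were past the threshold. The log2 fold changes of the 15 members were all positive there and 14 of them were smaller than without the covariate. Rnu3b4 stood at 3.93 (SE 1.11, adjusted p 0.095, edgeR) and Snora81 at 5.25 (SE 1.90, adjusted p 0.19, edgeR), while Snora30 stood at 2.80 (SE 2.47), Snora68 at 1.41 (SE 0.83), Scarna2 at 1.03 (SE 1.24) and Scarna17 at 0.61 (SE 1.28). The share did not overlap between the chow groups (18.2% to 29.6% in labelled LXRα-/- chow, 3.89% to 5.67% in WT chow), so genotype and share cannot be told apart there. Leaving out library 3 of both labelled LXRα-/- groups gave 15 calls.

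**Figure D4:**
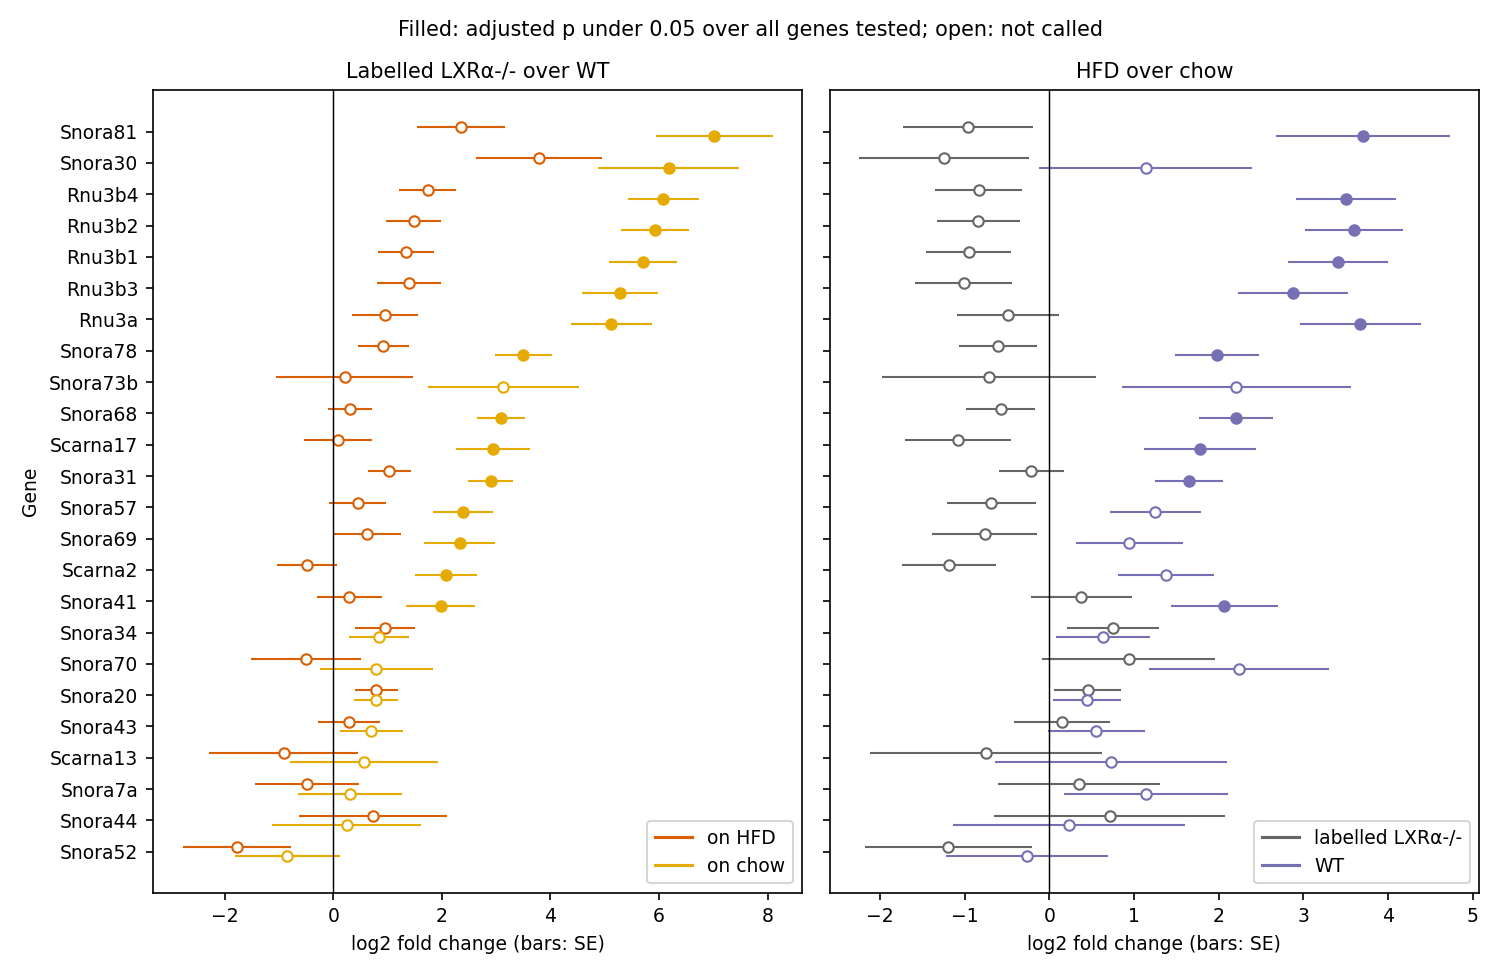
Log2 fold changes (horizontal, bars are SE) of the 24 tested members, ordered by the chow comparison. The left panel gives labelled LXRα-/- over WT on HFD and on chow and the right panel HFD over chow in labelled LXRα-/- and in WT; filled points passed an adjusted p of 0.05, which 15 members did for genotype on chow, 11 for diet in WT and 0 in the other comparisons.

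On HFD the genotype difference was smaller and no member passed. Of 24 members 0 were called by edgeR, where 0.455% of all genes were called. An unadjusted p under 0.05 was found for 7 members and for 14.2% of all genes, and DESeq2 called 2 members and 2.81% of all genes. Among the 7 were the 4 identical Rnu3b copies. The median log2 fold change was 0.67 for the members and 0.03 for all genes. Rnu3b4, Rnu3b2 and Rnu3b3 lay higher in labelled LXRα-/- HFD than in WT HFD without overlap in CPM, where 7.81% of all genes did. With the identical copies counted once this is 1 of 21 members. Their log2 fold changes were 1.74 (SE 0.53, adjusted p 0.139, edgeR), 1.48 (SE 0.51) and 1.39 (SE 0.58). Without library 3 of labelled LXRα-/- HFD they were 1.20, 0.96 and 0.73. Without it Snora30 stood at 1.21 in place of 3.79, Snora68 at -0.10 in place of 0.30 and Snora57 at -0.16 in place of 0.45. The members that DESeq2 called were Snora30 (adjusted p 0.0185) and Rnu3b4 (adjusted p 0.0304).

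Part of these RNAs were higher on HFD in WT livers. In WT HFD 11 of the 24 members were higher than in WT chow and none was lower, where 29.3% of all genes were called and 14.3% called higher. The median log2 fold change was 1.71 for the members and 0.02 for all genes, and 10 members lay higher without overlap, where 10.1% of all genes did. With the Rnu3b copies counted once, 8 of 21 members were called and 7 lay without overlap. The called members include Rnu3a, Snora81 and Scarna17, which had no WT chow library at 10 counts. U3 again had 5 of 5 called: 3.67 for Rnu3a (SE 0.71), 3.60 for Rnu3b2 (SE 0.58), 3.51 for Rnu3b4 (SE 0.59, adjusted p 0.000189, edgeR), 3.41 for Rnu3b1 (SE 0.59) and 2.88 for Rnu3b3 (SE 0.65). Of the 16 H/ACA members 5 rose: Snora81 (3.70, SE 1.02, adjusted p 0.00981, edgeR), Snora68 (2.20, SE 0.43), Snora41 (2.07, SE 0.64), Snora78 (1.98, SE 0.50) and Snora31 (1.65, SE 0.40).

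Among small Cajal body RNAs, Scarna17 had 2, 12, 16, 20 and 13 counts in WT HFD against 2, 3, 2, 4 and 9 in WT chow, and its call was marginal (1.77, SE 0.66, adjusted p 0.049, edgeR). That call was lost in 17 of 20 fits with a library left out. Scarna2 had 33, 73, 41, 66 and 67 counts in WT HFD against 48, 46, 2, 10 and 12 in WT chow and did not pass (1.38, SE 0.56). Snora70 lay apart, at 73, 73, 144, 180 and 124 counts in WT HFD against 13, 33, 29, 41 and 21 in WT chow, without a call (2.24, SE 1.06, adjusted p 0.124, edgeR). The 11 called members were all among the 15 called for genotype on chow; both comparisons use the same WT chow libraries, so this is not independent. With the mitochondrial share as a covariate 0 members were called here, where 1463 of all genes (7.74%) were called in that fit. Rnu3b4 stood at 2.21 there (SE 0.76, adjusted p 0.0832, edgeR). The share did not overlap between WT HFD (9.77% to 19.3%) and WT chow (3.89% to 5.67%), so diet and share cannot be told apart.

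In labelled LXRα-/- livers the diets were not told apart. Of 24 members 0 were called by edgeR and 0 by DESeq2, and 1, Scarna2, had an unadjusted p under 0.05, where edgeR called 0.0159% of all genes and 6.76% had an unadjusted p under 0.05. The median log2 fold change was -0.70 for the members and -0.01 for all genes. Scarna2 had 63, 29, 72, 33 and 32 counts in labelled LXRα-/- HFD against 87, 130, 78, 117 and 114 in labelled LXRα-/- chow, which do not overlap in counts but do in CPM, and its log2 fold change was -1.19 (SE 0.55, adjusted p 0.729, edgeR).

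The difference between the genotype effects, tested as the interaction, was (labelled LXRα-/- HFD minus WT HFD) minus (labelled LXRα-/- chow minus WT chow). It was negative and past the threshold for 11 of 24 members and positive for none, where 19.4% of all genes were called and 9.12% were called negative. With the Rnu3b copies counted once it was 8 of 21. Rnu3a, Snora81 and Scarna17, which had no WT chow library at 10 counts, were among the 11. The median was -2.16 for the members and -0.03 for all genes. The called members were the 5 U3 genes, between -3.89 and -4.44, Snora81 (-4.67, SE 1.28, adjusted p 0.0144, edgeR), Snora68 (-2.78, SE 0.59), Snora78 (-2.58, SE 0.68), Snora31 (-1.86, SE 0.55), Scarna2 (-2.57, SE 0.79) and Scarna17 (-2.86, SE 0.91). Without library 3 of labelled LXRα-/- HFD there were 13 calls, with Snora30 and Snora57 added, and Rnu3b4 stood at -4.88 and Snora81 at -5.79. Scarna17 lost its call in 9 of 20 such fits and Scarna2 in those without labelled LXRα-/- HFD library 2 or 4. With the mitochondrial share as a covariate 0 members were called, where 76 of all genes (0.402%) were called in that fit, so the loss was not particular to the members.

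Host genes show whether a small RNA moved with the transcript that carries it. Of the 26 members 21 lie within a gene on the same strand, in 18 distinct hosts, 1 lies only opposite to a gene, and 4 (Rnu3a, Scarna2, Scarna17 and Snora43) lie in none. The same-strand hosts together took 2224 ± 221 CPM in labelled LXRα-/- HFD, 2380 ± 261 CPM in WT HFD, 2090 ± 421 CPM in labelled LXRα-/- chow libraries and 2124 ± 137 CPM in WT chow (SD, n = 5 each). The sum of the members was 40.0 CPM in labelled LXRα-/- chow and 3.52 CPM in WT chow. Without the U3 genes it was 15.9 CPM in labelled LXRα-/- chow and 3.07 CPM in WT chow. Both sums also hold members without a same-strand host.

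Over 14 pairs of a tested member and its same-strand host, U3 and Snora68 left out, the member had the larger log2 fold change on chow in 12, with medians of 1.41 for the members and -0.08 for the hosts. Of the 6 members in these pairs that rose, the host rose in 2, fell in 1 and was not called in 3. Eif4a2, a helicase of translation initiation, rose by 1.69 (SE 0.44) where Snora81 rose by 7.02. The noncoding Snhg9 rose by 2.64 (SE 0.74) where Snora78 rose by 3.50.

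The host that fell was Eef1b2, which encodes a subunit of the elongation factor that reloads eEF1A. Its CPM was 36.6 ± 14.6 in labelled LXRα-/- chow and 144 ± 21.0 in WT chow (SD, n = 5 each) (log2 fold change -2.02, SE 0.29, adjusted p 1.76e-05, edgeR). Snora41 inside it had 39, 50, 41, 27 and 29 counts in labelled LXRα-/- chow against 5, 14, 1, 20 and 4 in WT chow and rose by 1.98. In WT HFD against WT chow the same pair stood at 2.07 for Snora41 and -1.50 (SE 0.29) for Eef1b2. Srcap, a chromatin remodelling ATPase whose span holds Snora30, Tpt1, which encodes the translationally controlled tumour protein and holds Snora31, and the ribosomal protein gene Rpl39, which holds Snora69, stood at -0.17 (SE 0.88), 0.02 (SE 0.18) and -0.25 (SE 0.22) on chow and were not called. Snora30 also lies within Gm42715 on the same strand, which had 68.6 ± 42.2 CPM in labelled LXRα-/- chow and 28.4 ± 14.6 CPM in WT chow (SD, n = 5 each) and stood at 1.14 (SE 0.52, adjusted p 0.0829, edgeR). It was left out of the pairs, which take 1 host for each member.

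**Figure D5:**
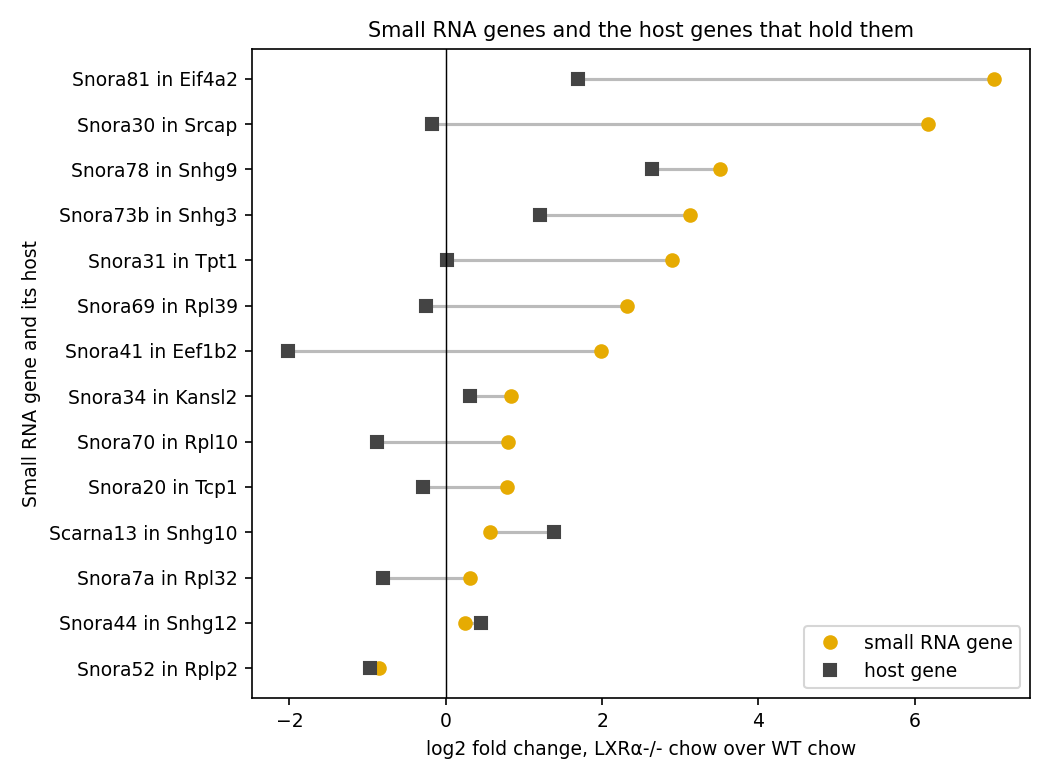
Log2 fold change of labelled LXRα-/- chow over WT chow for 14 small RNA genes (circles) and the same-strand host gene of each (squares), joined by a line. The circle lies to the right of the square in 12 of the 14 pairs, and Snora41 and Eef1b2 lie on opposite sides of 0.

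Counts of small RNAs within the same host were set side by side. Whether they moved differently was not tested, and several lay at only a few counts. In Eif4a2, Snora81 had a median of 143 counts in labelled LXRα-/- chow against 1 in WT chow. The snoRNA gene Gm24616 had 113 in labelled LXRα-/- chow against 5 in WT chow. Gm26447 had 3 in labelled LXRα-/- chow against 2 in WT chow, and Gm24201 had 0 in labelled LXRα-/- chow against 3 in WT chow. Gm26447, Gm24201 and Snord2 had at most 46, 21 and 8 counts in any library. In Snhg3, Snora73b had a median of 34 counts in labelled LXRα-/- chow against 3 in WT chow and Snora73a had 3 in labelled LXRα-/- chow against 1 in WT chow. In Snhg12, Snora44, Snora16a and Snora61 had medians of 1 count in labelled LXRα-/- chow, against 1, 4 and 1 in WT chow. Snhg12 itself was not called on chow (0.45, SE 0.24), while Snhg8, the host of Snora24, rose by 1.62 (SE 0.14).

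Per kilobase, the order of mean levels differed between groups. The leading members were Rnu3b4, Snora31 and Rnu3b2 in labelled LXRα-/- HFD (26.2, 14.5 and 14.3 FPKM), Snora68, Snora70 and Rnu3b4 in WT HFD (9.74, 8.79 and 6.65 FPKM), Rnu3b4, Rnu3b2 and Snora68 in labelled LXRα-/- chow (40.6, 22.2 and 18.8 FPKM) and Snora20, Snora57 and Snora68 in WT chow (2.31, 2.25 and 2.09 FPKM). Terc, the H/ACA RNA of telomerase that the name rule leaves out, had at most 21 counts and reached 10 in 2 libraries.

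Genes for proteins of the H/ACA particle fell on chow or did not pass. Over all 18905 genes tested, 4225 were called higher and 3972 lower on chow. Of 8 genes of the H/ACA particle and its assembly, 0 rose and 6 fell in labelled LXRα-/- chow against WT chow, with a median log2 fold change of -0.71. Among them were the assembly ATPase Ruvbl1 (-2.12, SE 0.27), the assembly factor Shq1 (-2.05, SE 0.44) and the core protein Nop10 (-1.85, SE 0.28), while dyskerin (Dkc1) stood at 0.05 (SE 0.28) and was not called. Of 12 genes of the box C/D and U3 particle, 4 rose and 3 fell, with the core protein Nop58 at 1.75 (SE 0.26), the methyltransferase fibrillarin (Fbl) at -1.21 (SE 0.16) and the assembly factor Znhit3 at -1.22 (SE 0.28). Of 33 small subunit processome genes, 8 rose and 9 fell, with Fcf1 at 0.94 (SE 0.12), Nol6 at -1.35 (SE 0.17) and Utp4 at -1.16 (SE 0.19).

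Of 29 genes for enzymes and carriers that trim, cap, move or destroy such RNAs, 7 rose and 4 fell on chow, where 43.4% of all genes were called and 22.3% were called higher, so these shares lie near or below those of all genes. The nuclear poly(A)-binding protein Pabpn1 stood at 2.19 (SE 0.23), Zcchc7, of the complex that tags RNA for decay, at 2.47 (SE 0.33) and the cap-binding Ncbp1 at -0.58 (SE 0.14). Of 15 genes of RNA polymerase I and ribosomal RNA transcription, 5 rose and 3 fell, and Polr1c (-1.28, SE 0.19), Polr1e (-1.14, SE 0.21) and Polr1d (-1.01, SE 0.18) were the 3 that fell. In WT HFD against WT chow the calls were 0 higher and 4 lower for the H/ACA particle, 0 and 2 for the box C/D particle, 5 and 7 for the processome, 6 and 2 for trimming and decay and 2 and 5 for polymerase I. Over all 18905 genes tested, 2706 were called higher there and 2841 lower. Between genotypes on HFD edgeR called 0 genes in each of these 5 lists, with an unadjusted p under 0.05 in 4 of 8, 7 of 12, 4 of 33, 1 of 29 and 4 of 15, where 14.2% of all genes had one.

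Of 11 other nuclear or poorly polyadenylated RNAs, 9 rose and 0 fell on chow, with a median log2 fold change of 3.24. Over all genes 22.3% were called higher on chow. Rn7sk, which restrains transcription elongation, had 752 to 1638 counts in labelled LXRα-/- chow against 47 to 138 in WT chow (3.68, SE 0.38), Rpph1, the RNA of ribonuclease P, had 391 to 829 in labelled LXRα-/- chow against 27 to 105 in WT chow (3.37, SE 0.44). Neat1, the scaffold of paraspeckles, had 22140 to 48620 counts in labelled LXRα-/- chow against 4878 to 12501 in WT chow (2.19, SE 0.31). Of 19 noncoding host transcripts, 13 rose and 0 fell on chow, again beside 22.3% of all genes called higher. The median of this list was 1.33, and Snhg15 (1.99, SE 0.26), Snhg16 (1.90, SE 0.23) and Snhg8 were among those that rose. Box C/D genes, the class most like the members, summed to 14.0 ± 10.6 CPM in labelled LXRα-/- HFD, 11.2 ± 2.47 in WT HFD, 20.3 ± 6.28 in labelled LXRα-/- chow libraries and 3.42 ± 0.702 in WT chow (SD, n = 5 each). Of 19 tested box C/D genes 9 rose and 1, Snord14e, fell on chow, where 22.3% of all genes were called higher. The median of these box C/D genes was 1.80, and whether the members differ from them was not tested.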

How the data were processed

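Gene counts and FPKM values of 20 mouse liver libraries were deposited by the authors in a single table, both named per the file headers. HISAT2 2.0, StringTie 1.3.0, Bowtie 0.12.2 and the build mm8 are listed, without roles, per the submitters' processing notes. No source used here gives the counting step or whether it used strand. Coordinates in the deposited table were those of GRCm38: all 26 members had the same start and end in GENCODE M21, and 55144 of 55385 identifiers were found there. Libraries held 75549139 to 108889938 counts, so 1 count was about 0.01 CPM.

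The deposited counts were tested with edgeR 4.0.16 (R 4.3.3) by the quasi-likelihood test over all 4 groups, after TMM scaling and the default low-count filter, with Benjamini-Hochberg adjustment over 18905 genes and a threshold of 0.05. DESeq2 1.42.0, other scalings, no filter, the replicate number as a block, the groups compared alone, the mitochondrial share as a covariate and leaving out libraries were alternatives. Leaving out library 3 of both labelled LXRα-/- groups, and summing the Rnu3b copies, were added after seeing the data. FPKM was used for levels only. Of 30 pairs of libraries with the same number, 2 had correlated deviations over 0.1, so the numbers were not taken to pair libraries. The fit was tested on simulated data.

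The members and gene lists were chosen with earlier results of these data known. Members named with values were the 6 largest called rises and falls in each comparison, the 6 with the highest mean CPM, all U3 and small Cajal body genes, those nearest the count rule, their hosts, and 3 genes of each list. Snora57, Snora69, Snora70, Snora73b, Snora41, Snora44, Snora52, Gm24616, Snord14e and other genes outside that rule were picked after their values were seen. For Snora68 the host gene is not reported here.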

Additional observations from a re-analysis of the deposited data

Results flagged for a closer look

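In each group of 5 libraries the gap between the most extreme library and its neighbour was compared with the range of the group (Dixon's ratio over 0.71). The groups were those of a chosen part of the members and of their sum. Some of these members were picked after their values were seen, and the identical Rnu3b copies and the sum repeat other values. A rate of about 1 in 20 by chance holds for independent values with a normal spread, so the number found cannot be set against it. Of 80 groups, 16 had such a gap. Of these, 10 concerned library 3 of labelled LXRα-/- HFD as the highest of its group: Rnu3b4 at 14.7 CPM (next 4.65), Rnu3b2 at 7.97 CPM (next 2.66), Rnu3b3 at 5.95 CPM (next 1.76), Rnu3b1 at 4.77 CPM (next 1.55), Snora68 at 4.17 CPM (next 1.65), Snora30 at 4.46 CPM (next 0.259), Snora57 at 3.37 CPM (next 1.23), Snora81 at 2.40 CPM (next 0.556), Snora78 at 1.88 CPM (next 0.675) and the sum of the members at 60.3 CPM (next 23.5). These genes were measured in a single library, so the gaps are not independent of each other.

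The other gaps were as follows. Rnu3a was at 0.995 CPM in WT HFD library 5 (next 0.508) and Scarna17 at 0.0872 CPM in WT chow library 5 (next 0.0383). Snora81 was at 0 CPM in WT chow library 5, where the next library held 0.00958 CPM, which is 1 count. Snora24 was at 0.362 CPM in labelled LXRα-/- HFD library 2 (next 0.0249) and at 0.377 CPM in WT HFD library 1 (next 0.0238), and Scarna13 at 0.378 CPM in labelled LXRα-/- chow library 4 (next 0.0827).

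The genotype effect differed between HFD and chow for 11 members by the interaction test of edgeR, each with a smaller log2 value on HFD. The log2 differences and adjusted p were -4.34 (0.00076) for Rnu3b4, -4.44 (0.000527) for Rnu3b2, -3.89 (0.00369) for Rnu3b3, -4.36 (0.000695) for Rnu3b1, -4.16 (0.00383) for Rnu3a and -4.67 (0.0144) for Snora81. They were -2.78 (0.00285) for Snora68, -1.86 (0.0221) for Snora31, -2.58 (0.0108) for Snora78, -2.57 (0.0274) for Scarna2 and -2.86 (0.0327) for Scarna17 by edgeR.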

How the results depend on the processing

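With the mitochondrial share as a covariate, 0 members were called on chow, 0 for diet in WT and 0 for the interaction, against 15, 11 and 11. Over all genes 182 (0.963%), 1463 (7.74%) and 76 (0.402%) were called in that fit on chow, for diet in WT and for the interaction. DESeq2 called 2 members for genotype on HFD, where edgeR called 0, and 16, 12 and 12 members on chow, for diet in WT and for the interaction. Of all genes, DESeq2 called 2.81% for genotype on HFD, where edgeR called 0.455%. On chow, for diet in WT and for the interaction DESeq2 called 47.1%, 33.4% and 23.7% of all genes, against 43.4%, 29.3% and 19.4% by edgeR. The other scalings, the fit without a filter and the fit to the groups compared gave 14 to 15 calls on chow, 10 to 11 for diet in WT and 10 to 11 for the interaction, with 0 in the other comparisons. Leaving out each library gave 15 to 16 calls on chow, 0 on HFD, 10 to 11 for diet in WT, 0 for diet in labelled LXRα-/- and 9 to 13 for the interaction. With the replicate number as a block there were 15, 0, 10, 0 and 10 calls, and the call of Scarna17 was lost for diet in WT (1.87, adjusted p 0.0728, edgeR). No called value changed sign. Values of exactly 1 count, which may be less than a read, limit Snora44, Snora24, Snora16a, Snora70 and Snora81.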
